A study of Mus musculus with 3 samples.

Results

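Mouse KRAB zinc finger genes lie in dense clusters, and 5 genomic windows labelled as such clusters are described here. In 4 of the windows the tiled DNA was less enriched for 5-methylcytosine than the rest of the same chromosomes. The members were chosen by position on mouse build mm9 as tiled regions whose midpoint lay on chromosome 2 between 174.5 and 178.0 Mb, on chromosome 4 between 145.0 and 147.4 Mb, on chromosome 13 between 62.1 and 62.9 Mb (the proximal window) or between 65.0 and 67.9 Mb (the distal window), or on chromosome 17 between 21.2 and 23.6 Mb. A tiled region is a run of at least 3 array probes with no more than 500 bp from one start to the next. The windows hold 184 of the 28880 tiled regions of the array, with 2141 probes. These are 43 regions on chromosome 2, 47 on chromosome 4, 4 in the proximal and 52 in the distal window of chromosome 13, and 38 on chromosome 17. The windows were chosen with the measured enrichment already known, so every level and every difference from the rest of a chromosome below is a description and carries no test.

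A KRAB zinc finger protein reads DNA through an array of zinc fingers, and its KRAB domain binds the corepressor TRIM28 (KAP1). TRIM28 brings in the histone methyltransferase SETDB1, heterochromatin protein 1 and, in the early embryo, DNA methylation at the bound site, and many of these sites are retrotransposons. The genes multiply by tandem duplication, so neighbours in a cluster can be near-identical copies that differ mainly in their fingers, and in mouse embryonic stem cells deletion of the chromosome 4 cluster is known to release endogenous retroviruses.

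Methylated DNA was immunoprecipitated from frontal cortex of naive C57BL/6 male mice aged 2 months, in 3 preparations each made from a pool of 3 mice. The antibody recognises 5-methylcytosine and, per the labels' protocols, not its hydroxymethylated form. Input DNA (Cy3) and bound DNA (Cy5) were both amplified from the whole genome and hybridised together on 1 array per preparation, giving 3 arrays of 1 group with no second condition and no swap of the dyes. The titles number the arrays 1 to 3 but each description gives the same replicate number, so the SDs describe array-to-array spread alone should any arrays share a pool.

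The value of a region is the mean over its probes of log2 bound over input signal, with the median probe of each array set to 0. Levels below are on this log2 scale, and errors are SDs over the 3 arrays. A level of 0 is the median probe and not an unmethylated site. A fragment with more methylated CpGs is captured more readily, so a level is not a percentage of methylation. In DNA of whole tissue, fewer cells that carry a mark and fewer marked CpGs per molecule cannot be told apart. Pearson's r between arrays was 0.898 to 0.926 across all 28880 regions and 0.829 to 0.907 across the 184 members. These are correlations across regions of shared arrays, given as a description.

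The files give probe positions and no gene names, and the annotation used here is of build GRCm38.p6, so no tiled region was assigned to a gene and the label of the clusters was not checked against mm9. RefSeq gene order on GRCm38.p6 was used for names alone. Runs are the longest chains of genes with a Zfp symbol in which at most 5 other protein-coding genes separate neighbours. On chromosome 2 the run from Zfp968 to Zfp931 holds 26 genes, of which 9 have a Zfp symbol and 17 only a Gm or Rik symbol. The chromosome 4 run from Zfp990 to Zfp933 has 16 Zfp genes among 18, beside Rex2. The chromosome 13 run from Zfp640 to Zfp273 has 24 Zfp genes among 31 and includes Rsl1 and Rslcan18, from a family of KRAB zinc finger genes that restrains male-specific gene expression in mouse liver. The chromosome 17 run from Zfp160 to Zfp13 has 23 Zfp genes among 39, interleaved with 12 vomeronasal receptor genes, which encode pheromone receptors.

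The series title concerns methylation at transcription start sites and the TATA-binding protein, so 1 RefSeq promoter per run is shown, from a gene with a CpG count at or next to the median of its run, to show how many CpGs such a start offers to the antibody. Each line gives the 250 bases before the start, 5′ to 3′ on the gene's strand, with CpGs in capitals. On GRCm38.p6 they lie at chr2:175469775-175470024 (plus strand), chr4:146512599-146512848 (plus), chr13:67360573-67360822 (minus) and chr17:21566728-21566977 (plus).
Zfp965: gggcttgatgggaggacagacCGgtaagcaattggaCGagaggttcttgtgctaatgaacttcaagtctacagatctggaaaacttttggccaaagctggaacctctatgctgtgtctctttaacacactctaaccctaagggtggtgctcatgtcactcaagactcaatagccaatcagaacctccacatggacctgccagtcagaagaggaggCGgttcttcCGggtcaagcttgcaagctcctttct
Zfp993: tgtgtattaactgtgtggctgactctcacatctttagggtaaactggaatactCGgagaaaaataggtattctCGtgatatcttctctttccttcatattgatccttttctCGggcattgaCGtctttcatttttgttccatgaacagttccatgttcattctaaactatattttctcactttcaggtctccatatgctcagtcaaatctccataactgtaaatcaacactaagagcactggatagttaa
Zfp953: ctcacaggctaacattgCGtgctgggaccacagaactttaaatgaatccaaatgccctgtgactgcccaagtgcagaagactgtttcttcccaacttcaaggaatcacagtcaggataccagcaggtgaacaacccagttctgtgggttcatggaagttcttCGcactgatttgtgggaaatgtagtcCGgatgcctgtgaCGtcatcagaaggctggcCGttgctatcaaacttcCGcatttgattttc
Zfp948: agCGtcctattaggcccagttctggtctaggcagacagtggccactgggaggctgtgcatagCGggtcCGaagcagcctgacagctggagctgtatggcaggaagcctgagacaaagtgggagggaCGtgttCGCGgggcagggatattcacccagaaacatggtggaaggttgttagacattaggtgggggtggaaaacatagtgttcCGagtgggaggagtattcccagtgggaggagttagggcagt

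These 4 stretches hold 4, 4, 6 and 7 CpGs. RefSeq promoters, taken as 300 bases from 250 before to 50 after the start, were found for 63 genes of the runs, namely 9, 12, 21 and 21 on chromosomes 2, 4, 13 and 17. The median CpG count was 5 on chromosome 2, 4.5 on chromosome 4, 8 on chromosome 13 and 10 on chromosome 17, beside 7 over all 27025 promoters. At least 10 CpGs were held by no promoter of the chromosome 2 run, by 8.33% on chromosome 4, 33.3% on chromosome 13 and 57.1% on chromosome 17, which is 31.7% of the 63, beside 43.9% of all promoters. The letters TATAAA stood on either strand in 1 of the 63 promoters (1.59%) and in 14.2% of all promoters. These are counts of letters in RefSeq sequence and were not joined to the array.

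The members as a whole had a level of -0.60 on array 1, -0.46 on array 2 and -0.45 on array 3, with a mean of -0.50 ± 0.08 (n = 3 arrays). All arrays were thus below 0, and array 1 was the lowest. The 6581 other regions of chromosomes 2, 4, 13 and 17 had a mean of -0.05 ± 0.02. On these values the chromosome 2 window was the lowest, at -0.79, -0.74 and -0.75 on arrays 1 to 3 (mean -0.76 ± 0.03). The distal window of chromosome 13 stood at -0.77, -0.52 and -0.47 (mean -0.59 ± 0.16) and the chromosome 17 window at -0.62, -0.30 and -0.29 (mean -0.40 ± 0.19). Their arrays 2 and 3 lay close together and array 1 well below them. The chromosome 4 window gave -0.35, -0.34 and -0.37 (mean -0.35 ± 0.01). The order of the windows depends on the processing. With the series matrix values the levels of chromosome 2, distal chromosome 13 and chromosome 17 were -0.49, -0.57 and -0.60, and with input above background -0.92, -0.95 and -0.97. Chromosomes 4 and 17 could not be ordered, since the chromosome 4 window was lower than the chromosome 17 window on arrays 2 and 3 and higher on array 1.

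The proximal window of chromosome 13 went the other way, at 0.85, 0.45 and 0.42 (mean 0.57 ± 0.24), with only 4 regions. Its single region with at least 8 probes and 75% of measurements above background in both channels, chr13:62230670-62231439, was low at -0.52, -0.77 and -0.84 (mean -0.71 ± 0.17). With regions of at least 8 probes only, the window's level was -0.22, and with the window widened by 0.2 Mb on each side it was 0.10.

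Against the rest of the same chromosome, the difference was -0.71 ± 0.03 for the chromosome 2 window, -0.34 ± 0.02 for chromosome 4, -0.45 ± 0.16 for distal chromosome 13 and -0.38 ± 0.21 for chromosome 17, each below 0 on all 3 arrays. For proximal chromosome 13 it was 0.71 ± 0.25, above 0 on all 3. The mean over windows, weighted by their regions, was -0.55, -0.41 and -0.37 on arrays 1 to 3 (mean -0.44 ± 0.09). Array 1 was the lowest of the 3 in 33 of the 52 distal regions and in 30 of the 38 on chromosome 17, beside 2115 of the 6581 regions elsewhere on the 4 chromosomes. Without array 1 the differences were -0.36 for distal chromosome 13 and -0.26 for chromosome 17, still below 0. Measured against the 2 Mb on each side of a window, the difference was -1.19 for chromosome 2, -0.44 for distal chromosome 13, -0.24 for chromosome 17 and -0.06 for chromosome 4, where the flanks were about as low as the window.

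Over the whole array, 38.1% of regions were called lower and 28.0% higher than the array median (limma, adjusted p under 0.05). Among the members 110 of 184 (59.8%) were called lower, 15 (8.15%) higher and 59 neither. The lower calls were 28 of 43 on chromosome 2, 21 of 47 on chromosome 4, 1 of 4 in the proximal and 39 of 52 in the distal window of chromosome 13, and 21 of 38 on chromosome 17. These calls use the contrast that chose the windows, so nothing is read from the shares. On all 3 arrays 122 members (66.3%) lay below 0 and 25 above, beside 13092 (45.3%) and 9822 of all 28880 regions.

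**Figure D1:**
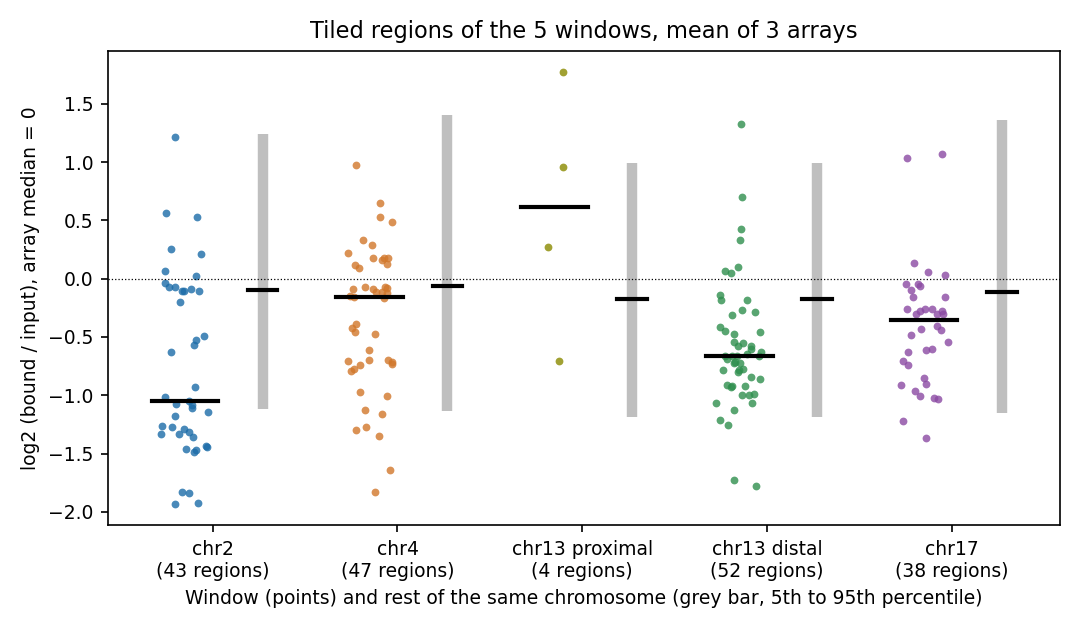
Level of every tiled region in the 5 windows (points, mean of 3 arrays, log2 bound over input with the array median at 0), with the window's median region as a black line; the grey bar beside each spans the 5th to 95th percentile of the rest of the same chromosome, with its median. On chromosome 2, 23 of the 43 points lie below -1 and 13 within 0.5 of 0, whereas the distal chromosome 13 points gather around a median of -0.66.

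How the members spread differed between windows. On chromosome 2 the regions fell into a low and a middle group, with 23 of 43 (53.5%) below -1, 4 between -1 and -0.5, 13 within 0.5 of 0 and 3 above 0.5. On the rest of chromosome 2 the share below -1 was 8.06%. In the distal window of chromosome 13 the largest class was moderate, with 28 of 52 (53.8%) between -1 and -0.5 and 7 below -1, beside 21.2% and 9.60% on the rest of the chromosome. Chromosomes 4 and 17 each had 55.3% of their regions within 0.5 of 0, and 8 of 47 and 5 of 38 regions below -1. The SD between regions was 0.77 on chromosome 2, 0.62 on chromosome 4, 0.54 in the distal window and 0.51 on chromosome 17, beside 0.73 on the rest of the 4 chromosomes.

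Regions were named by a rule that took, per window, the 2 lowest and the 2 highest regions with at least 8 probes and at least 75% of measurements above background in both channels, which left 8 eligible regions on chromosome 2, 4 on chromosome 4, 1 in each window of chromosome 13 and 2 on chromosome 17. On chromosome 2 the lowest of them, chr2:175163628-175164322 (8 probes), was at -2.20, -1.91 and -1.68 (mean -1.93 ± 0.26), or 3.81-fold less bound over input than the median probe. The next, chr2:175028335-175029789 (23 probes), was at -1.46, -1.39 and -1.53 (mean -1.46 ± 0.07). Both lay far below the median probe on every array. Of the 2 highest eligible regions, chr2:175107721-175108628 was at -0.08, 0.05 and 0.11 (mean 0.03 ± 0.10) and lies between those 2 low ones. The other, chr2:174910819-174911937, lies ahead of both, has the brightest input of the window and was at 0.03, -0.01 and -0.13 (mean -0.04 ± 0.09). Low regions and regions at the array median thus alternate in this stretch, and their arrays do not overlap. Further along, 11 consecutive regions between chr2:175572953 and chr2:177575631 were all called lower (mean -1.27 ± 0.13, from -1.93 to -0.49). The lowest of these, chr2:176864407-176865043 (-1.93 ± 0.22, at -2.02, -2.08 and -1.67), falls outside the naming rule and was picked after its value was seen. The 11 regions span a tiling gap of 664 kb. These and the consecutive regions given below are the longest series of their kind in each window, picked after the values were seen. No such lengths are given for the rest of the chromosomes.

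The rule asks for bound signal above background and so tends to leave out low regions. On chromosome 4, where 21 of 47 regions were called lower, the 4 eligible ones were chr4:145370316-145371567 at 0.02, -0.22 and -0.07 (mean -0.09 ± 0.12), chr4:145849378-145851459 at 0.17, 0.34 and 0.02 (mean 0.18 ± 0.16), chr4:147294989-147296217 at 0.87, 0.66 and 0.40 (mean 0.65 ± 0.24) and chr4:147358865-147360098 at 0.43, 0.59 and 0.57 (mean 0.53 ± 0.09). The last pair lay above 0 on all arrays and belongs to 4 consecutive regions above 0 (mean 0.61 ± 0.15) near the distal end of the window. These follow directly on 5 consecutive regions called lower between chr4:147149852 and chr4:147279564 (mean -0.71 ± 0.02). The lowest region of the window, chr4:146128255-146129474, was picked after its value was seen and stood at -1.86, -1.86 and -1.78 (mean -1.83 ± 0.05), with 74.1% of its measurements above background in both channels.

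In the distal window of chromosome 13 the only eligible region was the highest, chr13:65359625-65361034 (19 probes, all above background in both channels), at 1.41, 1.44 and 1.12 (mean 1.32 ± 0.18), or 2.50-fold more bound over input than the median probe. The region before it was at 0.10, and 45 of the 52 regions had a mean below 0, beside 594 of 969 on the rest of the chromosome. The lowest region, chr13:67272975-67274265 (14 probes), picked after its value was seen, was at -1.76, -1.97 and -1.61 (mean -1.78 ± 0.18), and only 33.3% of its measurements were above background in both channels. It lies among 20 consecutive regions below 0 from chr13:67214886 to chr13:67785420 (mean -0.77 ± 0.16), of which 12 in a row, chr13:67433231 to chr13:67739910, were called lower (mean -0.78 ± 0.13, from -1.26 to -0.42). The region with the largest SD of all members, chr13:65833447-65833717, was at -2.07, -0.28 and 0.63 with 3 probes. None of these was above background in the bound channel, and the region has no usable level. Other members here and on chromosome 17 also had no bound measurement above background. Among them, chr13:67017376-67018533 and chr13:67874854-67875643 were called lower. All of these regions count in the window means.

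On chromosome 17 the eligible regions were chr17:21559682-21560406, at -0.22, -0.09 and -0.46 (mean -0.26 ± 0.19), and chr17:21672116-21672679, at 0.99, 1.26 and 0.95 (mean 1.07 ± 0.17), the highest of the window. From chr17:21869496 to chr17:23521922 all 19 regions had a mean below 0 (-0.61 ± 0.22), whereas the first 0.25 Mb of the window averaged -0.05 ± 0.13 over 6 regions. In those 6 the share of measurements above background in both channels ranged from 0 to 66.7%, and in the 19 from 0 to 64.3%. Dim signal thus limits both sides of this contrast.

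**Figure D2:**
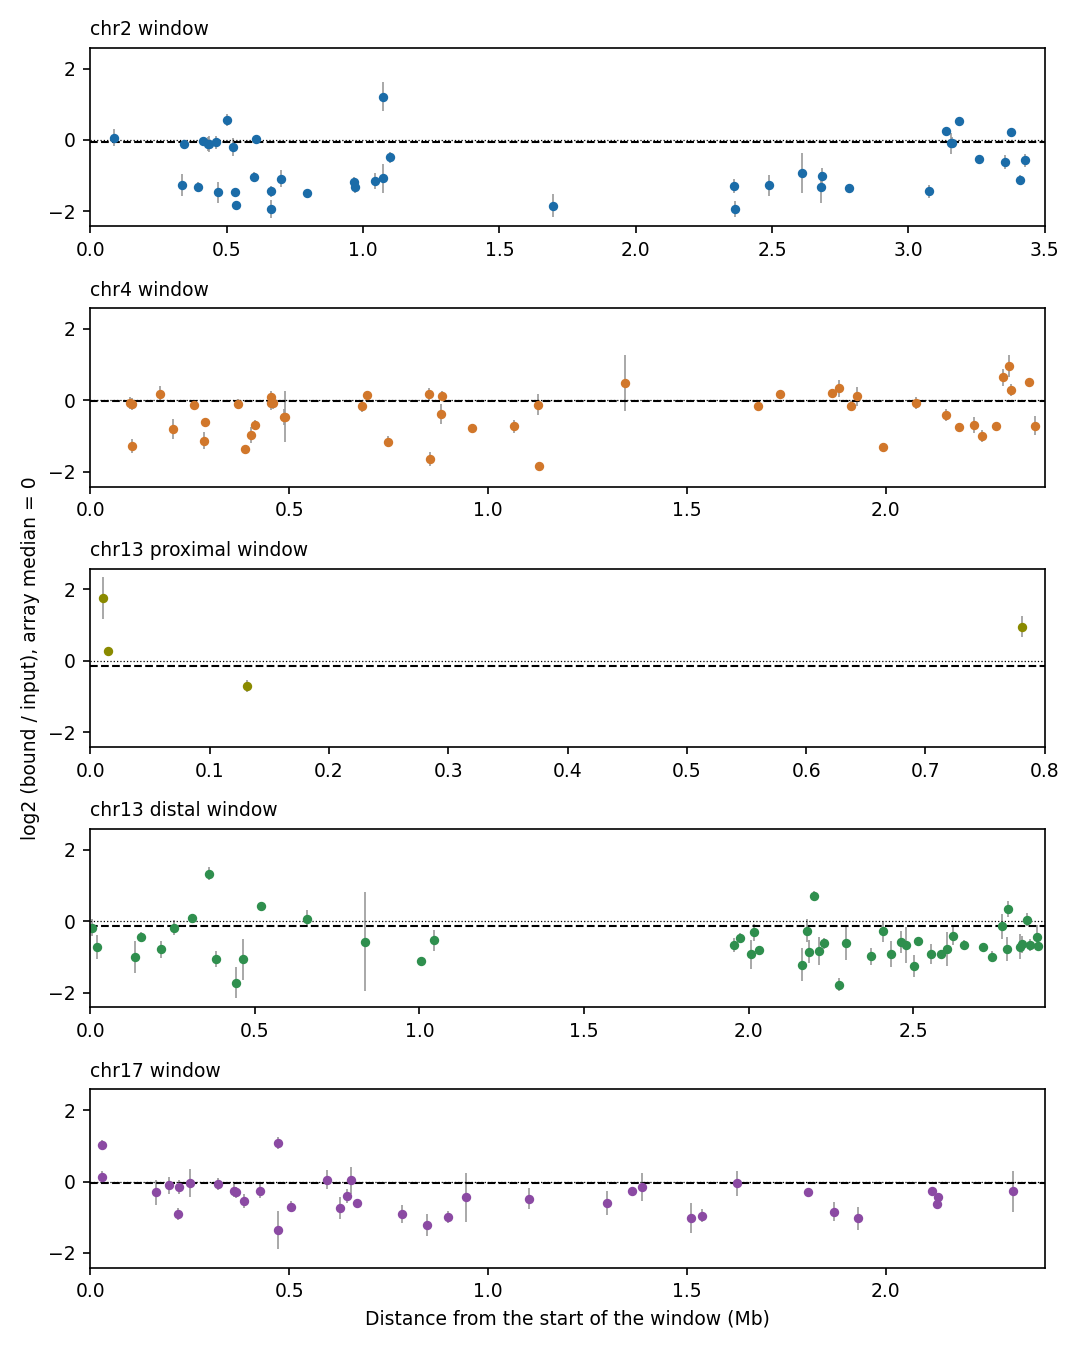
Level of each tiled region (point, mean of 3 arrays; bar, SD) against its distance from the start of the window in Mb, 1 panel per window; the dashed line is the mean of the rest of the chromosome and the dotted line is 0. Stretches with no point are gaps in the tiling, the widest being 912 kb in the distal window of chromosome 13.

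Neighbouring regions could differ sharply. On chromosome 17, chr17:21671310-21671607 (4 probes, 16.7% of measurements above background in both channels) was at -1.36 ± 0.53 and lay 509 bp from the high region named above, a difference of 2.43. On chromosome 2, chr2:175571868-175572466 (1.21 ± 0.40) and chr2:175572953-175573346 (-1.08 ± 0.40), each of 3 probes, lay 487 bp apart and differed by 2.29 on the log2 scale. Of 26 pairs of neighbouring members under 5 kb apart, 9 (34.6%) differed by more than 1, with a median absolute difference of 0.51, and elsewhere on the 4 chromosomes 27.2% of 1053 pairs did, with a median of 0.59. At 5 to 20 kb the median was 0.54 in the windows and 0.57 elsewhere, and at 20 to 50 kb 0.59 and 0.58. For neighbours 50 to 200 kb apart the median was 0.40 over 56 pairs in the windows and 0.63 over 1567 pairs elsewhere.

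The step from the nearest member inside a boundary to the nearest region outside it had no one direction. At the chromosome 2 window the first region inside was at 0.07 ± 0.23 and the nearest outside at -0.20 ± 0.09, and at its end the values were -0.57 ± 0.18 inside and 1.26 ± 0.36 outside. For chromosome 4 they were -0.07 ± 0.17 and 0.74 ± 0.35 at the start, and -0.71 ± 0.27 and -0.82 ± 0.03 at the end. For proximal chromosome 13 they were 1.77 ± 0.59 and -0.83 ± 0.36 at the start, and 0.96 ± 0.28 and 1.26 ± 0.16 at the end. For distal chromosome 13 the pair at the start was -0.18 ± 0.23 inside and -1.28 ± 0.41 outside, and at the end -0.69 ± 0.12 and -0.95 ± 0.32. The outside region at the start of that window lies 467 kb from the boundary and the one at its end 14.3 kb. For chromosome 17 the pairs were 1.03 ± 0.13 and -0.29 ± 0.23, and -0.28 ± 0.57 and -0.52 ± 0.27.

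The signal of the single channels moved with the windows. The median log2 input intensity was 10.79 on chromosome 2, 2.99-fold the rest of that chromosome, and 10.27 on chromosome 4, 1.85-fold its rest. It was 8.71 in the distal window of chromosome 13 (0.785-fold) and 8.26 on chromosome 17 (0.426-fold). A probe that matches several near-identical gene copies reports their sum, and since probe sequences were not used here, the signals of such copies cannot be told apart. Probes whose bound signal was not well above background on any array made up 23.2% of member probes on chromosome 2, 24.5% on chromosome 4, 50.5% in the distal window and 61.8% on chromosome 17, beside 32.1% on the rest of the 4 chromosomes. At least 1 such probe lay in 162 of the 184 members, which is about the rate over all regions (25017 of 28880). No member probe was saturated. A probe below background in the bound channel alone gives only a bound, and one below background in both channels gives no usable level. Input was well above background on all arrays for 56.3% of probes in the distal window and 43.4% on chromosome 17, beside 65.0% on the rest of the 4 chromosomes. The levels of these windows thus rest in large part on such probes. Without probes below background in both channels they were -0.82 and -0.82, and the differences from the rest of the chromosome -0.56 and -0.70. With only the probes above background in both channels on all arrays, the levels were -0.62, -0.31, -0.26 and -0.12 on chromosome 2, chromosome 4, distal chromosome 13 and chromosome 17, and the differences from the rest of the chromosome, filtered alike, were -0.93, -0.67, -0.52 and -0.45. The part of input signal and of dim probes in the levels was otherwise not tested.

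The contrast with other bright regions was wide on chromosomes 2 and 4. Above the 95th percentile of input signal over the array lay 43 members, of which 20 were on chromosome 2 and 18 on chromosome 4. Their mean level was -0.58 ± 0.03, beside 0.44 ± 0.08 for the 303 regions above that percentile elsewhere on the 4 chromosomes. Among these members 17 (39.5%) lay below -1 and 18 (41.9%) within 0.25 of 0, and among the other regions 10.6% and 11.6%. On chromosome 2 the bright members were 13 below -1 and 6 within 0.25 of 0, and on chromosome 4 they were 4 and 11. With the rest of the chromosome weighted to the members' input signal, the difference was -0.88 on chromosome 2, -0.49 on chromosome 4, -0.43 in the distal window and -0.35 on chromosome 17.

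**Figure D3:**
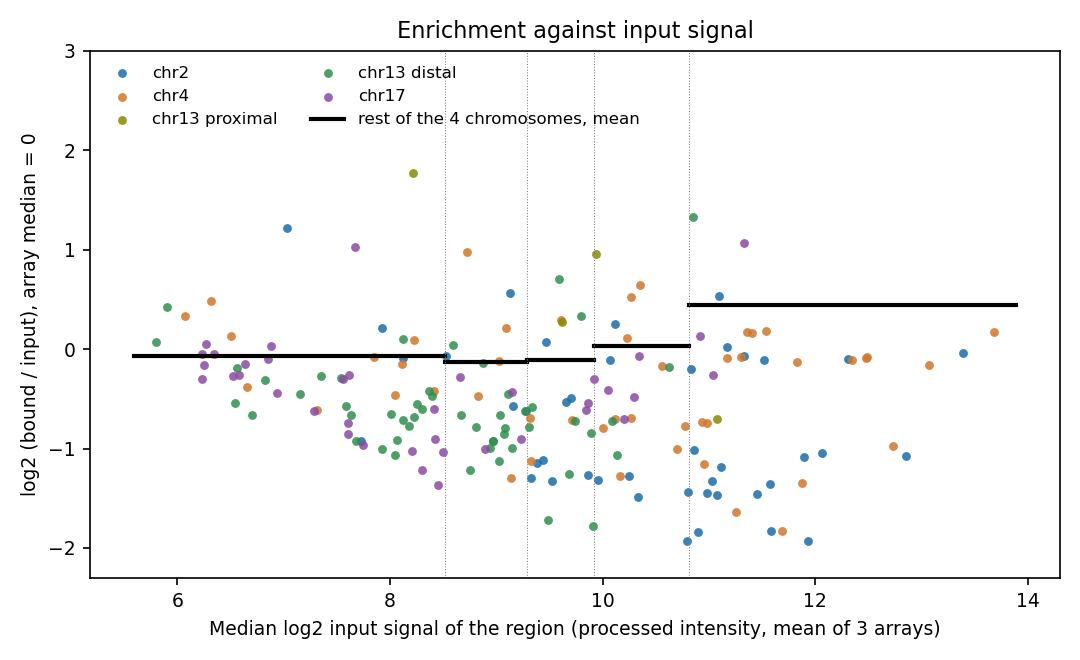
Level of each member (point, log2 bound over input, coloured by window) against its median log2 input intensity; black bars are means of the rest of the 4 chromosomes between the 25th, 50th, 75th and 95th percentiles of input (dotted lines). To the right of the last dotted line the other regions average 0.44, while chromosome 2 and chromosome 4 members lie at or below 0 apart from a few.

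Along a region, the difference between centre and edges was not alike in the windows. In regions of 1000 to 1800 bp with at least 8 probes, the centre (within 200 bp of the midpoint) was compared with the edges (over 500 bp from it). For 97 members the centre averaged -0.60 ± 0.12 and the edges averaged -0.49 ± 0.04, which differ by -0.20, -0.11 and -0.02 on the 3 arrays (mean -0.11 ± 0.09). For the 4172 other regions of the chromosomes it was -0.35, -0.24 and -0.23 (mean -0.27 ± 0.07). The centre was below the edges on all arrays on chromosome 4, at -0.62, -0.25 and -0.27 (mean -0.38 ± 0.21, 23 regions). The dip there was clearly deeper than elsewhere on array 1 only, slightly deeper on array 3 and level on array 2. On chromosome 2 it was about as deep as elsewhere (-0.28 ± 0.06, 21 regions). The smaller dip of the members together came from the other windows, as the centre was not below the edges on each array on chromosome 17 (-0.02 ± 0.09, 23 regions) or in the distal window (0.15 ± 0.19, 30 regions), where the sign changed between arrays. In these 2 windows 61.8% and 50.5% of probes had no bound signal well above background on any array. Their centres and edges thus rest in part on dim probes, whose part in the shape of each window was not tested. What lies at the midpoints is not given in the files.

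**Figure D4:**
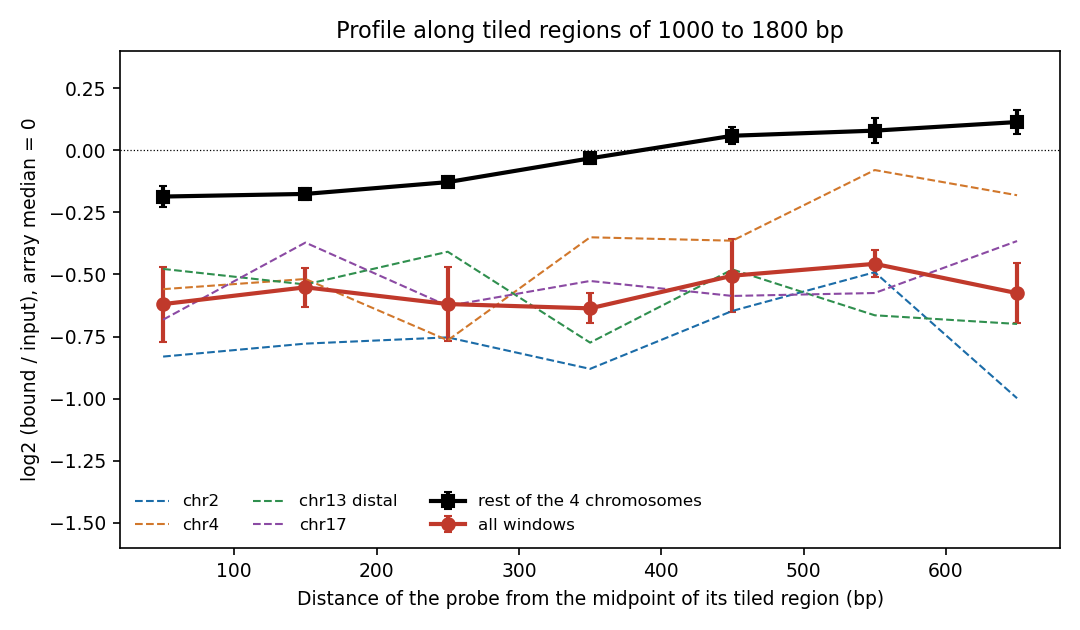
Mean level (log2 bound over input) of probes by distance from the midpoint of their tiled region, in 100 bp steps, for regions of 1000 to 1800 bp; the red line is all windows, the black line the rest of the 4 chromosomes (bars, SD of 3 arrays), and dashed lines single windows without bars. The black line climbs from -0.19 at the midpoint to 0.11 beyond 600 bp, and the red line stays between -0.64 and -0.46.

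The last question was how far the windows account for the low mean of chromosome 13, which had the lowest mean of the autosomes, though on array 2 chromosome 19 was level with it (chromosome 13 minus 19 of -0.0313, -0.00025 and -0.0260 on arrays 1 to 3). Its 1025 regions averaged -0.18, -0.13 and -0.17 on arrays 1 to 3 (mean -0.16 ± 0.03), and the other autosomes, with 26650 regions, averaged -0.05. Chromosome 13 was thus 0.11 lower on the log2 scale, its shortfall being -0.14, -0.09 and -0.10 on the arrays (mean -0.11 ± 0.03). The 56 members are 5.46% of its regions, and without them the shortfall was -0.11, -0.08 and -0.08 (mean -0.09 ± 0.02). The windows therefore carry 19.5%, 19.7% and 13.7% of the shortfall on arrays 1 to 3 (mean 17.8% ± 3.36). The distal window alone carries 20.5%, and the proximal window -2.58%, as its regions are high.

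Most of the shortfall thus lay outside the windows. On the rest of chromosome 13, 42.5% of 969 regions were called lower and 24.4% higher, beside 38.3% and 28.0% on the other autosomes. In steps of 5 Mb, the stretch from 65 to 70 Mb carried 25.8% of the shortfall with 64 regions, 52 of them members, and the stretch from 20 to 25 Mb carried 22.0% with 136 regions and no member. Those from 60 to 65 Mb and from 10 to 15 Mb carried 10.3% and 8.83%, and the stretch from 55 to 60 Mb stood above the other autosomes and carried -7.21%. With the windows of all 4 chromosomes left out, chromosomes 13 and 19 could not be ordered, with means of -0.14 for both and a difference of chromosome 13 minus 19 of -0.0037, 0.0183 and -0.0125 on the 3 arrays. By the median region, chromosome 13 was the lowest with its windows and only chromosomes 18 and 19 were lower without them. Leaving out the windows raised the mean of chromosome 2 by 0.012 ± 0.00052, of chromosome 4 by 0.0085 ± 0.00058 and of chromosome 17 by 0.011 ± 0.0060, beside 0.020 ± 0.0071 on chromosome 13, upward on each array in each case.

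**Figure D5:**
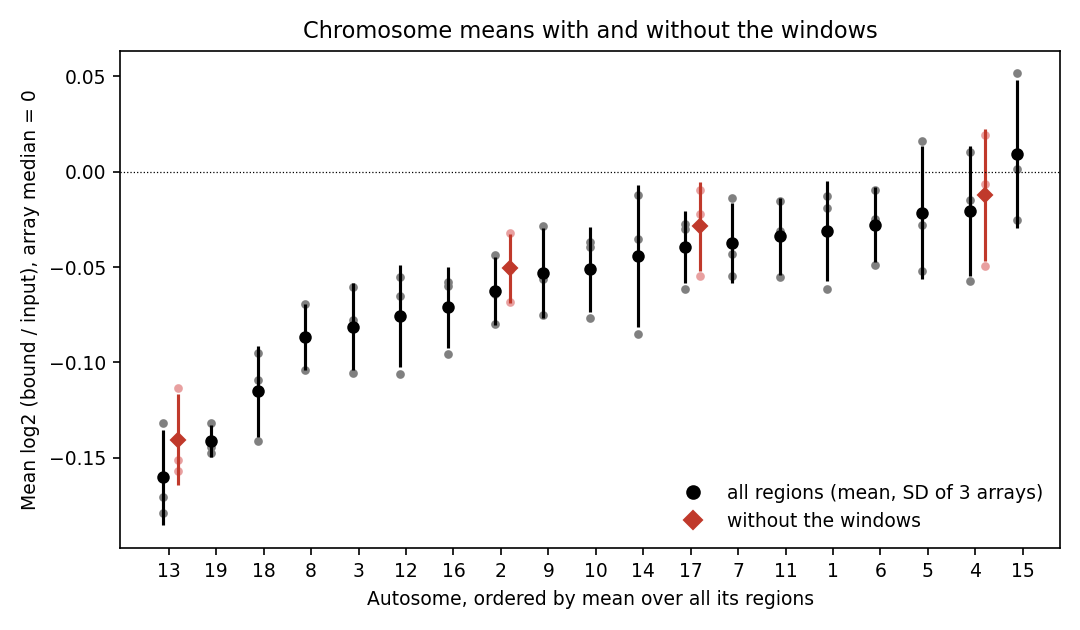
Mean level (log2 bound over input) of the tiled regions of each autosome, ordered from lowest; black circles are all regions, red diamonds the regions outside the windows, bars the SD over 3 arrays and small points the single arrays. Leaving out the windows moves chromosome 13 from -0.16 to -0.14, level with chromosome 19.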

How the data were processed

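Methylated DNA was measured on 3 2-colour arrays of mouse frontal cortex, with 420288 spots each, of which 415814 were not controls. Per the file headers, the deposited intensities come from Agilent Feature Extraction 10.7.3.1 with probes placed on build mm9, and the processed intensities are background-subtracted, detrended and dye-normalised with surrogate values near background. The authors' deposited series matrix holds log2 ratios of the same spots, which tracked log2 bound over input spot medians (r of 0.999 or more) with column medians of -0.97. Its normalisation is not stated in the labels or headers.

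Here log2 of bound over input processed intensity was taken per spot, outlier spots were dropped, each array was centred on its median (-0.19, -0.19 and -0.09 before centring) without loess or quantile steps, and repeated spots were averaged into 409606 probes. Deposited flags gave outlier spots, saturated spots and spots well above background. Probes on all 3 arrays were joined into tiled regions. limma 3.58.1 in R 4.3.3 was fitted over all regions against 0 with Benjamini-Hochberg adjustment. An exact sign-flip test over 3 arrays cannot go below 0.25, so none was run. Precision is limited by the number of arrays. The windows, lists and rules were chosen with earlier results of these data known. The normexp alternative used spot medians and background medians, since the planned mean signals were not analysed here. Named regions were, per window, the 2 lowest and 2 highest with at least 8 probes and 75% of measurements above background in both channels, plus those next to each boundary. Promoters and gene order are RefSeq's, on GRCm38.p6. The alternatives tried were other background corrections, loess, the matrix values, filters on dim probes, the mode as zero, other region and window limits, medians, probe means, other reference regions and each array left out.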

Additional observations from a re-analysis of the deposited data

How the results depend on the processing

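The members' mean level was below 0, and below the rest of their chromosomes, under every alternative run. The level moved from -0.50 to -0.25 with normexp background correction, -0.81 with input above background, -0.33 with both channels above background, -0.72 without probes dark in both channels, and -1.22 with the mode as zero. The difference from the rest of the chromosome moved from -0.44 to -0.26 with normexp, -0.57 with loess, and -0.61, -0.64 and -0.55 under those 3 filters. By window it moved by over 1.5 times to -0.47 on chromosome 2 with normexp and with the series matrix. On chromosome 4 it moved to -0.66 (loess), -0.67 (both channels) and -0.15 (median over regions), on distal chromosome 13 to -0.18 (normexp), and on chromosome 17 to -0.15 (normexp), -0.71 (series matrix), -0.83 (input above background) and -0.70 (without dark probes). Chromosome 13 minus the other autosomes moved from -0.11 to -0.0432 (normexp), -0.0710 (loess), -0.17 (series matrix), -0.17, -0.0772 and -0.14 (the 3 filters) and -0.0695 (regions of 1000 to 1800 bp). Without the windows it moved from -0.09 to -0.0362, -0.0511, -0.15, -0.15, -0.0609, -0.12 and -0.0477 in the same order, and to -0.0655 with at least 8 probes per region. The windows' share of that shortfall moved from 17.8% to 28.1% (loess), 11.6% (series matrix), 23.3% (at least 8 probes), 31.4% (regions of 1000 to 1800 bp), 21.9% (median over regions) and, as alternatives added after seeing the data, 22.6% without the 5% of regions brightest in input, and 20.5% without the proximal window. Lower calls among members moved from 110 of 184 to 54 of 107 tested with both channels above background (50.5%, beside 22.6% of all regions). With the mode as zero they moved to 171 (92.9%, beside 76.9%). Higher calls moved from 15 (8.15%, beside 28.0% of all regions) to 31 of 178 tested with the series matrix (17.4%, beside 32.5%). They moved to 5 with the mode as zero (2.72%, beside 8.66%). In regions of 1000 to 1800 bp they moved to 8 of 111 tested (7.21%, beside 29.0%). What else caused the moves was not tested.

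Leaving out each array in turn gave levels of -0.53 to -0.46 and differences of -0.48 to -0.39. The shortfall was then -0.12 to -0.10 with and -0.10 to -0.08 without the windows, with shares of 16.6% to 19.5%. Lower calls were 106 to 107 of 184 members, beside 9192 to 10544 of all 28880 regions. With all arrays they were 110 and 10998. Higher calls were 14 to 16 members, beside 6654 to 7794 of all regions. With all arrays they were 15 and 8074. The centre-to-edge difference without each array was -0.15 to -0.07. That difference was -0.03 with normexp (-0.12 elsewhere on the 4 chromosomes) and -0.18 with input above background (-0.39 elsewhere). The proximal window of chromosome 13, with 4 regions, reversed to -0.14 with the mode as zero and -0.22 with at least 8 probes per region, where its difference from the rest was -0.0767. Narrowed by 0.2 Mb on each side it held no region. No paired analysis was possible because there is 1 group of arrays. Dim bound signal, with dim input at many probes as well, limits the windows of distal chromosome 13 and chromosome 17, and 3 arrays limit all errors.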

Other observations

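Probes in runs of 1 or 2, which are too short to count as tiled regions, also had a mean below 0 in each window. The 104 such runs of the 5 windows (133 probes) had a mean of -0.56 ± 0.12, whereas the 2865 short runs of the whole array had a mean of 0.19 ± 0.05. The reference here is the whole array and not the rest of the same chromosomes, and the share of dim probes in these runs was not examined. By window the means were -0.78 ± 0.09 on chromosome 2 (38 runs) and -0.15 ± 0.12 on chromosome 4 (33 runs). They were -0.64 ± 0.17 in the distal window of chromosome 13 (23 runs) and -1.26 ± 0.21 on chromosome 17 (only 5 runs, with 6 probes). The proximal window of chromosome 13, whose tiled regions stood above 0, had a mean of -0.50 ± 0.19 over 5 short runs. Its median short run was at 0.64, so mean and median differ in sign.

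The tiling itself differed between windows and their chromosomes. The windows held 12.3 tiled regions per Mb on chromosome 2, 19.6 on chromosome 4, 17.9 in the distal window of chromosome 13 and 15.8 on chromosome 17, beside 14.2, 12.3, 8.57 and 14.2 on the rest of those chromosomes. Regions in the windows had a median of 11.5 probes over 1185 bp, and all regions 14 probes over 1341 bp.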
